A study of Nicotiana benthamiana with 12 samples.

Results

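Polysome RNA was compared with total RNA in unstressed leaves of Nicotiana benthamiana, a wild tobacco species widely grown in laboratories, to see which transcripts were over-represented or under-represented on polysomes. The comparison takes 6 of the 12 libraries of the series, chosen by their titles: 3 of polysome RNA (numbered 2 to 4) and 3 of total RNA (numbered 5 to 7). All came from leaves of 5-week-old plants grown in soil in long days and left at 23 °C for 1 h, the treatment called mock, with no transgene or other agent named in the labels. Both kinds of RNA were extracted with Trizol, and a sequencing company built the libraries. The labels do not say how the polysomes were prepared, or whether a polysome library and a total library came from the same leaves. The other 6 libraries are the same RNA fractions from plants held at 37 °C for 1 h, and they serve here only to show where the ratio at 23 °C differs from the ratio in heat. The submitters call the 3 libraries of each group biological replicates. No further detail of plants or pools is given, so p-values measure the spread between these libraries.

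A polysome is a messenger RNA that carries several ribosomes at once. The share of a transcript that is found on polysomes is commonly used as a measure of how actively it is translated, although it also depends on coding length, because a short coding sequence has room for few ribosomes. In green leaves much of the protein made in the cytosol is destined for the chloroplast, whose small genome encodes only a few of its own proteins and is read by bacterial-type ribosomes.

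Total counts ran from 10724854 to 14474404 per library. The 100 most abundant genes of each library held 44.8 ± 2.40% of the counts in polysome RNA and 32.5 ± 1.22% in total RNA (mean ± SD, n = 3). Levels are given as CPM, counts per 1000000 of a library size scaled by trimmed mean of M-values (TMM), so that the typical gene has the same level in both fractions and every ratio is relative to the typical gene. The scaling factors were 1.40 to 1.46 in total RNA and 0.791 to 0.963 in polysome RNA. With library totals alone, the median log2 ratio of all tested genes was -0.69 in place of 0.00. A library measures proportions, so an overall change in the amount of RNA on polysomes cannot be seen. In whole leaves, fewer cells of a type and less RNA per cell cannot be told apart.

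The libraries carried leaf markers. The 11 tested genes of the Rubisco small chain, the nuclear-encoded subunit of the carbon-fixing enzyme, summed to 52911 to 62331 CPM in total RNA and 84235 to 112158 CPM in polysome RNA. The antenna proteins, which bind chlorophyll and collect light, summed to 76650.2 to 91115 CPM and 123132 to 177910.2 CPM. Lists for other tissues were low but present. Of 10 tested genes of a root list, 6 were over-represented and 1 under-represented, with a median log2 ratio of polysome to total RNA of 1.17 and sums of 80.5 to 92.1 CPM in total RNA and 181 to 279 CPM in polysome RNA. The floral and meristem list summed to 759 to 788 CPM and 998 to 1055 CPM, the vascular list to 145 to 204 CPM and 169.9 to 265 CPM, and the epidermis list to 209 to 242 CPM and 285 to 395 CPM. Their part in the results was not tested.

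Mock total libraries 6 and 7 stood apart in organelle transcripts. Genes annotated with proteins of the plastid genome summed to 645, 10224 and 9932 CPM in total libraries 5, 6 and 7, and to 1028, 2646 and 764 CPM in polysome libraries 2, 3 and 4. Genes annotated with proteins of the mitochondrial genome summed to 15.4, 150.4 and 116 CPM in total RNA and to 46.7, 44.7 and 36.9 CPM in polysome RNA. The comparison was therefore repeated without libraries 6 and 7, a fit in which total RNA has 1 library and borrows its spread from the other groups. Polysome library 3 also differed from libraries 2 and 4 in some families of small proteins, as described with them below.

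The test covered 34325 of the 40763 genes, those with enough counts. In edgeR's quasi-likelihood test with Benjamini-Hochberg adjustment, 9275 genes (27.02% of those tested) were over-represented on polysomes and 9327 genes (27.2%) were under-represented, 54.2% in all. With a log2 ratio beyond 1 as well, the numbers were 5444 (15.9%) and 6245 (18.2%). The 3 polysome libraries were all above the 3 total libraries for 9299 genes (27.1%) and all below them for 9871 genes (28.8%). Without libraries 6 and 7, 6532 genes (17.9% of 36434 tested) were over-represented and 6996 genes (19.2%) under-represented. The split rests on the scaling: with library totals alone it was 3258 over-represented and 17246 under-represented genes. The counts for each gene group below are read against these shares. Without libraries 6 and 7 fewer of all tested genes passed, so a lower count in a group there is not by itself a weaker ratio.

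**Figure D1:**
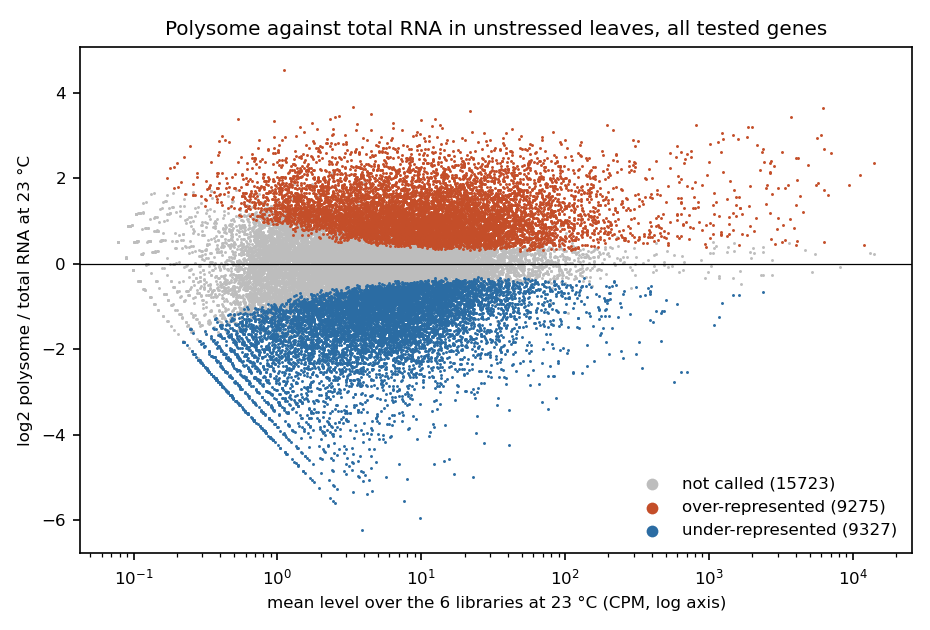
Log2 ratio of polysome to total RNA at 23 °C (vertical axis) against the mean level over the 6 libraries in CPM (horizontal log axis) for the 34325 tested genes, each a point. The 9275 over-represented genes (orange) and the 9327 under-represented genes (blue) lie on both sides of 0, and the lowest ratios reach -6.24 while the highest is 4.54.

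The proteins of the cytosolic ribosome were over-represented as a group. Of 123 tested genes for proteins of the small subunit (40S), 67 were over-represented and 10 under-represented, with a median log2 ratio of 0.83 against 0.00 for all tested genes. Of 260 genes for the large subunit (60S), 158 were over-represented and 26 under-represented, with a median of 0.78. Without libraries 6 and 7 both medians were 0.94, and 3 genes of the 40S list and 15 of the 60S list were under-represented. The polysome libraries differed in how far these genes were raised: the medians of the 40S list against the mean of total RNA were 1.08, 0.47 and 0.83 in libraries 2, 3 and 4, and those of the 60S list were 1.08, 0.46 and 0.75.

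Individual ribosomal genes spread widely. The 40S ribosomal protein S30 gene Niben101Scf01927g09005.1, which encodes one of the smallest proteins of the small subunit, stood at 12.8, 10.2 and 17.3 CPM in total RNA and 99.05, 71.1 and 90.3 CPM in polysome RNA. All polysome libraries lay far above all total libraries, with a log2 ratio of 2.70 ± 0.19 (± SE, 6.48-fold, adjusted p = 4.9e-08). The acidic stalk protein P2, which helps recruit elongation factors to the ribosome, behaved alike: Niben101Scf06081g02016.1 had 35.8, 33.2 and 45.5 CPM in total RNA and 279, 157 and 222 CPM in polysome RNA, a log2 ratio of 2.52 ± 0.19 (adjusted p = 8.5e-08). The gene for P0, the larger protein that anchors the stalk, went the other way. Its level in Niben101Scf02370g02007.1 was 64.5, 63.7 and 87.9 CPM in total RNA and 15.1, 11.9 and 15 CPM in polysome RNA, without overlap, and its log2 ratio was -2.36 ± 0.18 (adjusted p = 8.9e-08). Among 21 genes for acidic P proteins, 15 were over-represented and 4 under-represented. An S4 gene of the small subunit (Niben101Scf17473g00009.1) was also under-represented, with 26.2, 18.96 and 29.5 CPM against 8.28, 4.05 and 6.04 CPM and a log2 ratio of -2.03 ± 0.28 (adjusted p = 2.4e-05).

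Ribosomal proteins with bacterial-type names (30S and 50S), which serve plastid and mitochondrial ribosomes and are mostly encoded in the nucleus, were over-represented in 202 of 426 genes and under-represented in 62. Their median was 0.44, which became 0.78 without libraries 6 and 7, where 21 genes were under-represented, and -0.24 with library totals alone. The most abundant member, a gene for the large-subunit protein L31 (Niben101Scf06171g00001.1), had 349.7, 266 and 228 CPM in total RNA and 1775, 1749 and 2545 CPM in polysome RNA. The fractions did not overlap, and the log2 ratio was 2.85 ± 0.21 (adjusted p = 7.5e-08). An L28 gene (Niben101Scf12404g00002.1) had a ratio of 2.23 ± 0.14 on the same scale (adjusted p = 1.9e-08), while an L22 gene (Niben101Scf05750g04010.1) fell from 110.3, 109.9 and 131 CPM to 47.5, 42.5 and 50.8 CPM, a log2 ratio of -1.32 ± 0.14 (adjusted p = 2.0e-06).

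The factors that act on the ribosome showed no such common direction. Of 164 genes for translation initiation factors, 35 were over-represented and 59 under-represented, with a median of -0.18. Of 101 genes for elongation and release factors, 25 were over-represented and 32 under-represented, with a median of -0.02. Within the initiation factors the families differed in their counts. All 5 genes for eIF1 and eIF1A, small factors that bind the small subunit during scanning, were over-represented, with a median of 1.56. Of 10 genes for eIF5A, a small factor that helps the ribosome past difficult peptide bonds, 7 were over-represented and 0 under-represented, with a median of 0.89. Other families had the opposite balance: 0 of 9 genes for eIF4G, the scaffold of the cap-binding complex, were over-represented and 5 were under-represented, and eIF2, which brings the initiator tRNA, had 0 over-represented and 5 under-represented genes of 7. The multi-subunit factor eIF3 had 8 over-represented and 18 under-represented genes of 45. The eIF4E family lay between, with 1 over-represented and 1 under-represented gene of 10 and a median of -0.17. Some of these counts were smaller without libraries 6 and 7. Then 2 of the 7 eIF2 genes were under-represented, with a median of -0.63, and 4 of the 10 eIF5A genes were over-represented, with a median of 0.72. For elongation and release factors the counts were then 12 over-represented and 25 under-represented.

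An eIF1A gene (Niben101Scf01990g00001.1) stood at 36.3, 28.8 and 35.1 CPM in total RNA and at 110.1, 119 and 121 CPM in polysome RNA. Its groups did not overlap and its log2 ratio was 1.80 ± 0.15 (adjusted p = 1.6e-07). The IF-2 gene Niben101Scf04225g02007.1, named after the bacterial factor that places the initiator tRNA, went from 118, 137 and 135 CPM to 30.1, 34.4 and 36.04 CPM, and its log2 ratio was -1.96 ± 0.15 (adjusted p = 9.5e-08). The ratios of the list reached down to -4.89. The most abundant eIF5A gene (Niben101Scf03166g00008.1) had 191, 175 and 173 CPM against 177, 229 and 226 CPM. These ranges overlapped, and its log2 ratio of 0.23 ± 0.15 did not pass (adjusted p = 0.23).

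Elongation factor 2, which moves the ribosome along the message, was over-represented in 6 of 9 genes and under-represented in 2, with a median of 0.59 that became -0.11 with library totals alone. Its gene Niben101Scf01848g04005.1 had 56.5, 57.9 and 60.3 CPM in total RNA and 149, 150.5 and 168 CPM in polysome RNA, a log2 ratio of 1.42 ± 0.13 (adjusted p = 3.5e-07). Of the 9 genes, 3 passed upward and 1 downward without libraries 6 and 7. The most abundant gene for elongation factor 1-alpha, which delivers aminoacyl-tRNA, was level in both fractions. In Niben101Scf08618g01012.1 the values were 523, 470.1 and 446 CPM and 534, 449.8 and 498 CPM, with a log2 ratio of 0.04 ± 0.14 that did not pass (adjusted p = 0.82). Elongation factor 1B had 2 over-represented and 3 under-represented genes of 13, with a median of 0.02.

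Aminoacyl-tRNA synthetases, the enzymes that charge tRNAs with amino acids, were under-represented in 74 of 114 genes and over-represented in 13, with a median of -0.70 (-0.64 without libraries 6 and 7, where 7 genes were over-represented). The isoleucine enzyme gene Niben101Scf01256g00007.1 had 13.9, 12.97 and 9.35 CPM in total RNA and 0.951, 1.30 and 2.46 CPM in polysome RNA, a log2 ratio of -2.98 ± 0.27 (adjusted p = 3.4e-07). The most abundant member, a gene for the glycine enzyme (Niben101Scf03548g01011.1), had 91.1, 108 and 91.99 CPM against 37.6, 83.2 and 68.8 CPM. Its groups did not overlap and its log2 ratio was -0.62 ± 0.21 (adjusted p = 0.021), which without libraries 6 and 7 was -0.53 and did not pass (adjusted p = 0.17). An exception was a lysine enzyme gene (Niben101Scf03323g01004.1), with 6.91, 5.11 and 5.96 CPM against 16.5, 21.5 and 21.04 CPM and a log2 ratio of 1.72 ± 0.20 (adjusted p = 3.6e-06). Ribosome biogenesis genes, which process ribosomal RNA in the nucleolus, had 27 over-represented and 45 under-represented genes of 130 and a median of -0.26.

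**Figure D2:**
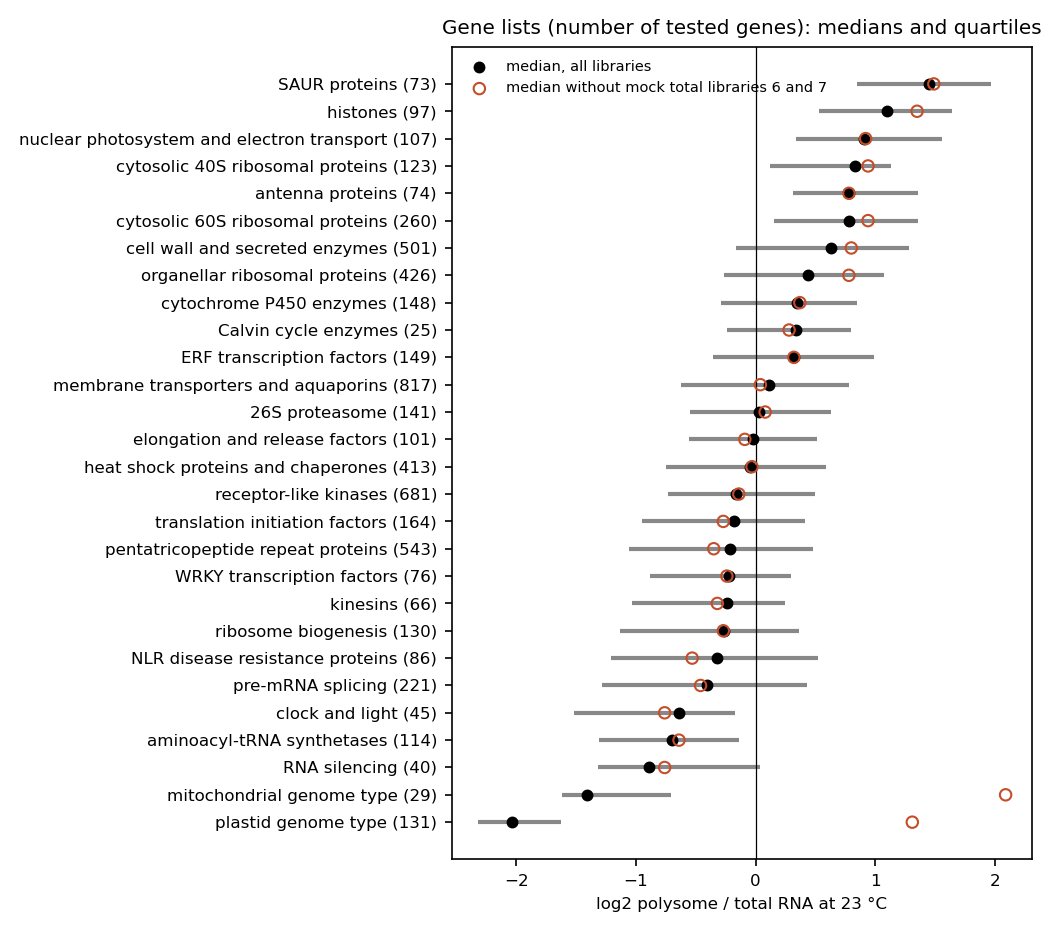
Log2 ratio of polysome to total RNA at 23 °C for the main gene lists described (number of tested genes after each name): black points are list medians over all libraries, grey bars run from the lower to the upper quartile of the genes, and open circles are medians without mock total libraries 6 and 7. Of the lists plotted, SAUR proteins (1.45) and histones (1.10) lie highest and the plastid genome list (-2.04) lowest, and the plastid and mitochondrial genome lists change sign without those libraries (1.31 and 2.09).

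Nuclear genes for the light reactions of photosynthesis were over-represented. Of 107 genes for photosystem subunits and electron carriers, 74 were over-represented and 8 under-represented, with a median of 0.91 (0.92 without libraries 6 and 7). For the subunits of photosystem I, which passes electrons to ferredoxin, 25 of 29 genes were over-represented and 0 under-represented. The antenna proteins had 46 over-represented and 4 under-represented genes of 74 and a median of 0.78, the same without libraries 6 and 7.

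The photosystem II 10 kDa polypeptide, a subunit near the oxygen-evolving centre, had the highest mean level of all genes in polysome RNA. Its gene Niben101Scf01116g01004.1 stood at 5273, 4778 and 3666 CPM in total RNA and at 18002, 25786 and 26904 CPM in polysome RNA, so that every polysome library was far above every total library. The log2 ratio was 2.37 ± 0.20 (5.15-fold, adjusted p = 2.2e-07). The photosystem II 5 kDa protein showed a still larger ratio: Niben101Scf00290g00017.1 had 675, 601 and 585 CPM in total RNA and 6199, 5640.1 and 8436 CPM in polysome RNA, a log2 ratio of 3.45 ± 0.19 (10.9-fold, adjusted p = 1.3e-08). Among the other 3 genes with that name, 2 had ratios of 3.01 ± 0.20 and 2.88 ± 0.17 on the log2 scale, while Niben101Scf00487g06013.1 had 0.21 ± 0.15 and did not pass (adjusted p = 0.27). The largest decrease in the list was that of a 4Fe-4S ferredoxin gene (Niben101Scf01022g03011.1), of a family of iron-sulfur electron carriers, from 19.9, 16.9 and 13.3 CPM to 2.57, 6.26 and 4.37 CPM (log2 ratio -1.90 ± 0.24, adjusted p = 1.0e-05).

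Individual antenna genes differed in their ratios. Niben101Scf02262g01007.1, annotated as chlorophyll a-b binding protein 50 and the most abundant of its list, had 3524, 3414 and 3010.1 CPM in total RNA and 9182, 9828 and 11407 CPM in polysome RNA (log2 ratio 1.61 ± 0.17, adjusted p = 1.9e-06). Niben101Scf05349g01011.1, annotated as binding protein 25, had 5911, 5788 and 4825 CPM against 3154, 6171 and 5235 CPM, with overlapping ranges and a log2 ratio of -0.18 ± 0.23 that did not pass (adjusted p = 0.52). The antenna gene with the smallest adjusted p downward (Niben101Scf01020g01004.1, annotated as binding protein 40) was under-represented, with 55.3, 56.3 and 50.6 CPM against 25.2, 15.96 and 21.5 CPM and a log2 ratio of -1.38 ± 0.18 (adjusted p = 1.4e-05).

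Genes for the Rubisco small chain also differed from each other. Of its 11 genes, 8 were over-represented and 0 under-represented, with a median of 0.69 that was 0.00 with library totals alone. Niben101Scf04196g00003.1 rose from 4271, 3515 and 4994 CPM in total RNA to 17635, 14325 and 22547 CPM in polysome RNA, a log2 ratio of 2.09 ± 0.20 (adjusted p = 5.7e-07). The gene with the highest level in total RNA, Niben101Scf03015g06015.1, had 12798, 11897 and 14104 CPM against 13025, 14505 and 17896 CPM. Its ranges overlapped and its log2 ratio of 0.23 ± 0.17 did not pass (adjusted p = 0.27). How reads were divided among similar gene copies was not tested, so the ratios of single genes are uncertain here. The wider list of Calvin cycle enzymes, which fix carbon dioxide into sugar, had 12 over-represented and 4 under-represented genes of 25 and a median of 0.34, or -0.37 with library totals alone.

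Genes for secreted proteins and cell wall enzymes were over-represented in 211 of 501 cases and under-represented in 58, with a median of 0.63 (-0.06 with library totals alone). The lipid-transfer proteins, small secreted proteins that bind lipids, led this group, with 49 over-represented and 2 under-represented genes of 65 and a median of 1.61. GDSL esterases and lipases, enzymes that act on lipids and wall esters, had 42 over-represented and 3 under-represented genes of 78. Germin-like proteins had 13 and 1 of 22, and expansins, which loosen cell walls, 14 and 1 of 32. Without libraries 6 and 7 the median was 1.08 for GDSL genes (0.97 with all libraries) and 0.91 for expansins (0.78 with all libraries). For these families polysome library 3 was the lowest of the 3. The list medians against total RNA in libraries 2, 3 and 4 were 2.01, 0.78 and 1.66 for lipid-transfer proteins and 1.26, -0.01 and 0.78 for expansins.

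The largest ratio among the genes that met every naming condition was that of a gene for non-specific lipid-transfer protein 1 (Niben101Scf29144g00011.1). It stood at 1076, 748 and 918 CPM in total RNA and at 10813, 7144 and 16547 CPM in polysome RNA. All polysome libraries were above all total libraries, which was a condition of naming. The log2 ratio was 3.65 ± 0.28 (12.6-fold, adjusted p = 8.7e-08). Thionin-like genes, which encode small cysteine-rich defence peptides, followed: all 9 tested genes were over-represented, with a median of 3.20. The median of these 9 genes against total RNA was 3.79 in polysome library 2 and 3.82 in library 4, but 0.61 in library 3. Their summed level was 841 to 989 CPM in total RNA and 11136, 1294 and 13098 CPM in polysome libraries 2, 3 and 4. The named member (Niben101Scf09801g02012.1) had 3.87, 2.94 and 3.14 CPM against 55.9, 6.19 and 58.1 CPM, a log2 ratio of 3.58 ± 0.55 (adjusted p = 5.3e-05).

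Membrane transport genes were close to the background as a whole, with 224 over-represented and 186 under-represented genes of 817 and a median of 0.11. The counts were 143 and 139 without libraries 6 and 7. Families within them differed. Aquaporins, the small channels for water, were over-represented in 39 of 59 genes and under-represented in 0, with a median of 1.00. ABC transporters, large pumps driven by ATP, were over-represented in 16 of 99 genes and under-represented in 36, with a median of -0.35. An aquaporin-like gene (Niben101Ctg16098g00002.1) had 54.4, 42.03 and 35.8 CPM in total RNA and 265, 326 and 570.1 CPM in polysome RNA, a log2 ratio of 3.13 ± 0.25 (adjusted p = 1.2e-07).

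Histones, the proteins that package DNA, were over-represented in 61 of 97 genes and under-represented in 5, with a median of 1.10 (1.35 without libraries 6 and 7). Of the core histones, H4 had 15 over-represented and 0 under-represented genes of 17, H3 13 and 0 of 20, H2B 13 and 0 of 20, and H2A 16 and 1 of 25. The linker histone H1, which is longer than the core histones, had 4 over-represented and 4 under-represented genes of 15, with a median of 0.05. The H1 counts without libraries 6 and 7 were 4 and 1, and the median was 0.29. The histone medians in polysome libraries 2, 3 and 4 were 1.81, 0.31 and 0.97, again lowest in library 3. A gene for the variant H2A.Z (Niben101Scf08328g00009.1) was raised in all of them, with 6.91, 5.28 and 7.82 CPM in total RNA and 29.7, 23.6 and 27.2 CPM in polysome RNA (log2 ratio 2.01 ± 0.17, adjusted p = 2.0e-07). The most abundant H1 gene (Niben101Scf05487g01009.1) had 287, 286 and 309.5 CPM against 621, 689 and 668 CPM, a log2 ratio of 1.16 ± 0.15 (adjusted p = 8.2e-06). Another H1 gene (Niben101Scf07748g01001.1) fell from 54.9, 49.4 and 70.2 CPM to 44.6, 20.3 and 19.8 CPM, a log2 ratio of -1.04 ± 0.26 (adjusted p = 0.0029).

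SAUR proteins, small products of auxin-responsive genes that promote cell growth, had the highest median of the 45 lists. Of 73 tested genes 55 were over-represented and 3 under-represented, and the median was 1.45 (1.49 without libraries 6 and 7). The gene Niben101Scf00135g03006.1 stood at 0.825, 0.939 and 0.961 CPM in total RNA and at 8.09, 7.71 and 8.40 CPM in polysome RNA (log2 ratio 3.14 ± 0.28, adjusted p = 2.9e-07). The most abundant SAUR gene (Niben101Scf13186g02006.1) was nearly level, with 77.1, 74.2 and 98.1 CPM against 93.3, 84.8 and 98.4 CPM and a log2 ratio of 0.15 ± 0.19 that did not pass (adjusted p = 0.53). The other auxin regulators, Aux/IAA proteins and auxin response factors, had 22 over-represented and 23 under-represented genes of 89.

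Genes for RNA silencing, in which small RNAs guide Argonaute proteins to their targets, were under-represented in 22 of 40 cases and over-represented in 4, with a median of -0.89. Among Argonaute genes themselves 12 of 23 were under-represented and 4 over-represented. An Argonaute 1B gene (Niben101Scf08137g02022.1) had 39.9, 50.7 and 45.03 CPM in total RNA and 10.6, 13.2 and 7.16 CPM in polysome RNA, a log2 ratio of -2.12 ± 0.20 (adjusted p = 6.4e-07). The genes annotated as Argonaute 4, the form that directs DNA methylation, went both ways. Niben101Scf05519g01007.1 was the most abundant, with 52.1, 60.6 and 64.95 CPM against 35.1, 29.1 and 27.98 CPM (log2 ratio -0.95 ± 0.14, adjusted p = 5.4e-05). Niben101Scf06788g00019.1, at far lower levels, rose from 0.825, 0.763 and 0.705 CPM to 3.996, 2.14 and 2.01 CPM (log2 ratio 1.82 ± 0.36, adjusted p = 5.0e-04).

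Clock and photoreceptor genes had 4 over-represented and 23 under-represented genes of 45 and a median of -0.64. The clock repressor gene pseudo-response regulator 7 (Niben101Scf00289g03009.1) fell from 39.5, 40.7 and 34.5 CPM to 10.2, 12.9 and 8.40 CPM, a log2 ratio of -1.86 ± 0.17 (adjusted p = 3.4e-07). The blue-light receptor gene cryptochrome-1 (Niben101Scf02751g04010.1) had 37.5, 28.6 and 28.5 CPM against 43.96, 45.9 and 46.9 CPM, a log2 ratio of 0.53 ± 0.14 (adjusted p = 0.0038). That call ended without libraries 6 and 7 (adjusted p = 0.26), and its ratio was -0.16 with library totals alone. The most abundant member, a gene for the clock protein GIGANTEA (Niben101Scf07631g02024.1), had 141, 141 and 109 CPM against 80.8, 114 and 111 CPM, and its log2 ratio of -0.36 ± 0.18 did not pass (adjusted p = 0.11).

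Pre-mRNA splicing genes were under-represented in 97 of 221 cases and over-represented in 47, with a median of -0.41. Its families differed in their counts. The Sm-type proteins, small subunits that form a ring on spliceosomal RNAs, were over-represented in 20 of 29 genes and under-represented in 0, with a median of 1.14. The SR splicing factors, longer proteins that choose splice sites, were over-represented in 4 of 40 genes and under-represented in 21. PRP8, the very large protein at the centre of the spliceosome, had 1 and 4 of 6. The gene for small nuclear ribonucleoprotein E (Niben101Scf00887g05007.1) had 12.7, 14.1 and 15.1 CPM in total RNA and 62.8, 57.97 and 60.4 CPM in polysome RNA, without overlap (log2 ratio 2.11 ± 0.15, adjusted p = 4.4e-08). The splicing factor gene SLU7 (Niben101Ctg14954g00005.1) had 7.61, 7.16 and 6.79 CPM against 0.571, 0.687 and 0.784 CPM (log2 ratio -3.39 ± 0.22, adjusted p = 2.6e-08).

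Among the 10 largest ratios upward were also genes for cytochrome c, the mobile electron carrier of mitochondria, and for an EF hand protein of a calcium-binding family. The cytochrome c gene (Niben101Scf12289g00014.1) was tight in both fractions, at 2.60, 2.64 and 2.43 CPM in total RNA and 26.4, 25.4 and 22.2 CPM in polysome RNA (log2 ratio 3.26 ± 0.16, adjusted p = 6.5e-09). The EF hand gene (Niben101Scf02245g00008.1) had 3.62, 2.58 and 1.99 CPM against 19.98, 20.2 and 34.8 CPM (log2 ratio 3.19 ± 0.24, adjusted p = 9.1e-08). An F-box gene (Niben101Scf08193g00009.1), of a family that selects proteins for degradation, had 1.59, 0.939 and 1.22 CPM against 10.9, 10.8 and 12.6 CPM (log2 ratio 3.19 ± 0.29, adjusted p = 3.3e-07). The absence of overlap between the fractions was a condition for this ranking. So was a mean above 5.27 CPM over the 6 mock libraries. Total levels of these genes lay below that, so they met it through their polysome levels. The remaining 3 were a plant thionin family gene (Niben101Scf05044g00015.1), a glycine-rich protein gene (Niben101Scf03052g00011.1) and a gene for a metallocarboxypeptidase inhibitor (Niben101Scf06248g00007.1). Their log2 ratios were 3.30 ± 0.34, 3.26 ± 0.42 and 3.13 ± 0.28 (adjusted p = 1.4e-06, 1.1e-05 and 3.1e-07). The thionin family and inhibitor genes also met the level condition through their polysome levels, as did the thionin-like gene Niben101Scf09801g02012.1.

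**Figure D3:**
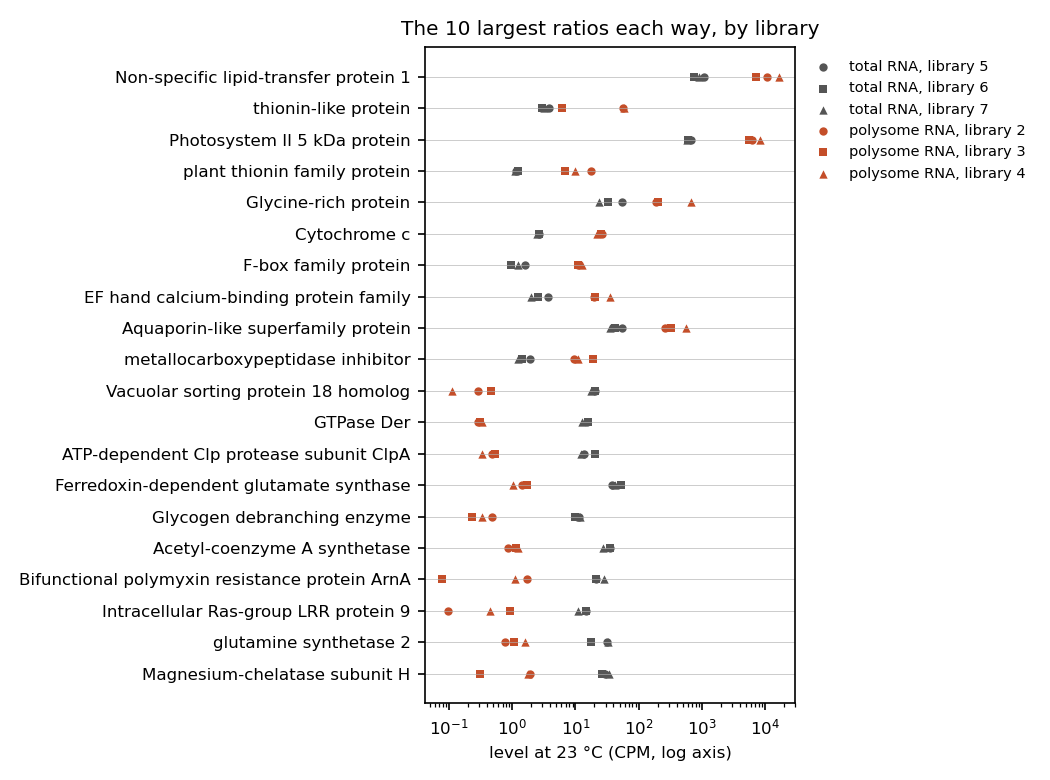
Level in CPM (horizontal log axis) in each mock library for the 10 genes with the largest log2 ratios upward and the 10 downward among those that met the naming conditions: grey symbols are total libraries 5, 6 and 7 and orange symbols are polysome libraries 2, 3 and 4. The absence of overlap between the fractions was one of those conditions. Polysome library 3 lies close to total RNA for the thionin-like gene (6.19 CPM against 55.9 and 58.1 CPM).

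The largest ratios downward were mostly those of genes annotated as enzymes. Naming required a mean above 5.27 CPM over the 6 mock libraries. Polysome levels of these 10 genes lay below that, so they met it through their total levels. A homolog of VPS18 (Niben101Scf02077g12027.1), part of a complex that tethers membranes for fusion with the vacuole, had 20.2, 20.4 and 17.8 CPM in total RNA and 0.285, 0.458 and 0.112 CPM in polysome RNA. Every polysome library was far below every total library, where naming required no overlap. The log2 ratio was -5.95 ± 0.30 (adjusted p = 7.1e-09). These polysome levels stand for only 3, 6 and 1 counts. The lowest value of every library in the table is 1, and the labels do not say whether 1 had been added to each count. With 1 subtracted from every count the ratio was -6.45, so its size is uncertain while its direction is the same. All 5 tested gene models annotated with VPS18 were under-represented, with log2 ratios from -5.95 to -2.32. Among them Niben101Scf02077g12027.1, Niben101Scf02077g12029.1 and Niben101Scf02077g12030.1 are close in number on the same scaffold. Whether these are separate genes or pieces of 1 gene was not tested, so the 5 models may not be independent.

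GTPase Der, named after a bacterial factor in ribosome assembly, had 15.5, 16.03 and 12.9 CPM in Niben101Scf39490g00008.1 against 0.285, 0.305 and 0.336 CPM (log2 ratio -5.55 ± 0.28, adjusted p = 7.1e-09). The ClpA gene Niben101Scf00213g02005.1, for a subunit that unfolds substrates of the Clp protease, had 13.8, 20.3 and 12.1 CPM against 0.476, 0.535 and 0.336 CPM (log2 ratio -5.04 ± 0.28, adjusted p = 1.6e-08). A glycogen debranching enzyme gene (Niben101Scf09937g00012.1), of starch metabolism in plants, had 11.5, 9.86 and 11.6 CPM against 0.476, 0.229 and 0.336 CPM (log2 ratio -4.98 ± 0.30, adjusted p = 1.8e-08). In each of these genes the 3 polysome libraries lay close together, well under the total libraries. Their polysome levels also rest on few counts, namely 3, 4 and 3 for GTPase Der, 5, 7 and 3 for ClpA and 5, 3 and 3 for the debranching enzyme. With 1 subtracted from every count their log2 ratios were -6.05, -5.36 and -5.43. Glutamine synthetase 2 (Niben101Ctg03632g00004.1), the plastid enzyme that binds ammonium, had 31.4, 17.5 and 33.2 CPM against 0.761, 1.07 and 1.57 CPM (log2 ratio -4.61 ± 0.42, adjusted p = 4.2e-07). The other members were genes annotated as acetyl-coenzyme A synthetase (Niben101Scf07601g00006.1), ArnA (Niben101Scf03862g03013.1, a bacterial enzyme name) and Ras-group-related LRR protein 9 (Niben101Scf04628g00015.1), with log2 ratios of -4.91 ± 0.30, -4.69 ± 0.50 and -4.68 ± 0.46 (adjusted p = 1.9e-08, 1.8e-06 and 7.5e-07). The ArnA and LRR genes had 1 count in 1 polysome library each.

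For some of these proteins other gene models with the same annotation, or 1 that differs by a number at its end, had quite different ratios. Ferredoxin-dependent glutamate synthase, the chloroplast enzyme that completes ammonium assimilation, had 5 tested models. Niben101Scf12966g00016.1 had 38, 53.4 and 42.1 CPM in total RNA and 1.43, 1.68 and 1.01 CPM in polysome RNA (log2 ratio -4.98 ± 0.22, adjusted p = 2.6e-09), and a further pair had ratios of -4.25 ± 0.20 and -4.11 ± 0.22. The remaining models were not called under-represented: Niben101Scf04198g01002.1 had 134, 143 and 102 CPM against 63.8, 153 and 120.4 CPM (log2 ratio -0.17 ± 0.24, adjusted p = 0.57), and Niben101Scf12966g00005.1 had a ratio of 0.61 ± 0.20 (adjusted p = 0.016; -0.09 with library totals alone). Magnesium-chelatase subunit H, which inserts magnesium on the way to chlorophyll, had 3 models with log2 ratios of -4.56 ± 0.47 (Niben101Scf24421g00002.1), 0.17 ± 0.14 (Niben101Scf04388g00011.1) and 1.37 ± 0.15 (Niben101Scf07214g00015.1). The depleted model was also the lowest in total RNA, at 29.9, 26.1 and 34.01 CPM against 151, 145 and 153 CPM and 101, 102 and 113 CPM for the others.

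Some glutamate synthase models with consecutive numbers on the same scaffold differed widely. On the scaffold of Niben101Scf12966g00005.1 (log2 ratio 0.61), the next model, Niben101Scf12966g00006.1, had -4.11, and Niben101Scf04198g01001.1 (-4.25) was followed by Niben101Scf04198g01002.1 (-0.17). Across the table, 428 pairs of tested genes had consecutive numbers on the same scaffold and the same annotation text, apart from letter case and a number at its end. The ratios within a pair differed by a median of 1.10 on the log2 scale, and 113 pairs (26.4%) differed by more than 2. In 36 pairs (8.41%) 1 gene was over-represented and the other under-represented. Among all tested genes 27.02% were over-represented and 27.2% under-represented. Pairs of unrelated genes were not compared, so whether these pairs differ more or less than such pairs cannot be said. Among the 104 pairs in which both genes had levels above the median of all tested genes, 14 (13.5%) differed by more than 2. Besides glutamate synthase, acetyl-coenzyme A synthetase Niben101Scf07601g00006.1 (-4.91) was followed by Niben101Scf07601g00007.1 (-0.95). For brefeldin A-inhibited exchange protein 5, which acts in vesicle traffic, Niben101Scf05183g06006.1 had 1.64 and Niben101Scf05183g06007.1 had -2.96. For phosphoglucosamine mutase family genes, Niben101Scf01582g08010.1 had 0.83 and Niben101Scf01582g08011.1 had -3.56. Whether such pairs are separate genes or pieces of 1 gene split by the annotation was not tested, since no genome was used here. At 37 °C the median difference within these pairs was 0.57, and at 23 °C without libraries 6 and 7 it was 1.03. More widely, 5567 annotation texts, here with any number kept, were shared by 2 to 10 tested genes. The SD of the log2 ratios within a text was 0.91, against 1.17 over all these genes, and 879 texts (15.8%) had at least 1 gene called in each direction.

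Genes of plastid genome type, as matched on the annotation text, gave ratios that depended on which total libraries were used. Of 131 tested genes, 2 were over-represented and 101 under-represented, with a median of -2.04. Without total libraries 6 and 7 the numbers were 24 and 4 and the median was 1.31. The Rubisco large chain, the catalytic subunit encoded in the plastid, is an example: Niben101Scf00173g09004.1 had 75.8, 1489 and 2014 CPM in total libraries 5, 6 and 7 and 168, 347 and 105 CPM in polysome libraries 2, 3 and 4. Every polysome library was above total library 5 and below total libraries 6 and 7. The log2 ratio was -2.53 ± 0.72 (adjusted p = 0.008), and 1.44 without libraries 6 and 7 (adjusted p = 0.046). Of the 29 tested genes of mitochondrial genome type, 1 was over-represented and 7 under-represented with a median of -1.41, and without libraries 6 and 7 the numbers were 17 and 0 with a median of 2.09. The gene for ATP synthase subunit 9 (Niben101Scf05957g00001.1), which forms the rotor of the enzyme, had 2.41, 10.4 and 10.1 CPM against 3.14, 3.28 and 2.24 CPM, a log2 ratio of -1.38 ± 0.41 (adjusted p = 0.0096) that was 0.27 without those libraries (adjusted p = 0.62). In the plastid list the fractions did not overlap for 2 genes higher and 4 genes lower on polysomes. A plastid assembly factor gene annotated as Ycf3 (Niben101Scf07850g08003.1) had 7.61, 7.93 and 6.79 CPM in total RNA, alike in all libraries. In polysome RNA it had 0.666, 0.611 and 0.336 CPM (log2 ratio -3.73 ± 0.25, adjusted p = 3.5e-08). An NAD(P)H-quinone oxidoreductase chain 4 gene (Niben101Scf07850g07005.1), also alike in total RNA at 7.74, 8.92 and 8.14 CPM, went the other way. It had 14.7, 27.7 and 28.99 CPM in polysome RNA (log2 ratio 1.53 ± 0.25, adjusted p = 1.1e-04).

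The ratio fell with the length of the homologous protein, which the annotation text gives for 8369 tested genes (24.4%). Genes with a homolog under 150 amino acids had a median log2 ratio of 1.24, with 356 over-represented and 27 under-represented genes of 498. The medians of the next classes were 0.42 for 150 to under 300 amino acids, -0.03 for 300 to under 500 and -0.25 for 500 to under 800. The 982 genes with a homolog of 800 or more amino acids had a median of -0.61, with 107 over-represented and 488 under-represented genes. The shortest class thus stood 1.85 above the longest, and 2.02 without libraries 6 and 7. Short coding sequences have room for few ribosomes, yet the classes of short homologs had the higher ratios. The cause was not tested. Across these genes, which are not independent replicates, the Spearman correlation of length with the log2 ratio was -0.37 (-0.40 without libraries 6 and 7), and it was -0.38, -0.31 and -0.35 for polysome libraries 2, 3 and 4 taken singly. The fall was present at both high and low levels: among genes above the median level the shortest class had a median of 1.45 and the longest -0.51, and among those below it 1.02 and -0.72. Lengths of the N. benthamiana proteins or transcripts were not used here, and most lists described above have a homolog length for few of their genes. Where family sizes are named above without lengths, they are background. Whether the ratios of those families follow size was not tested. The aquaporins have lengths for 48 of 59 genes, with a median of 285 amino acids. The 59 genes had a median log2 ratio of 1.00, beside 0.42 for the class of 150 to under 300. The SAUR list has lengths for 71 of 73 genes. Its 63 genes under 150 amino acids had a median of 1.57, against 1.17 for the other 435 genes of that class.

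**Figure D4:**
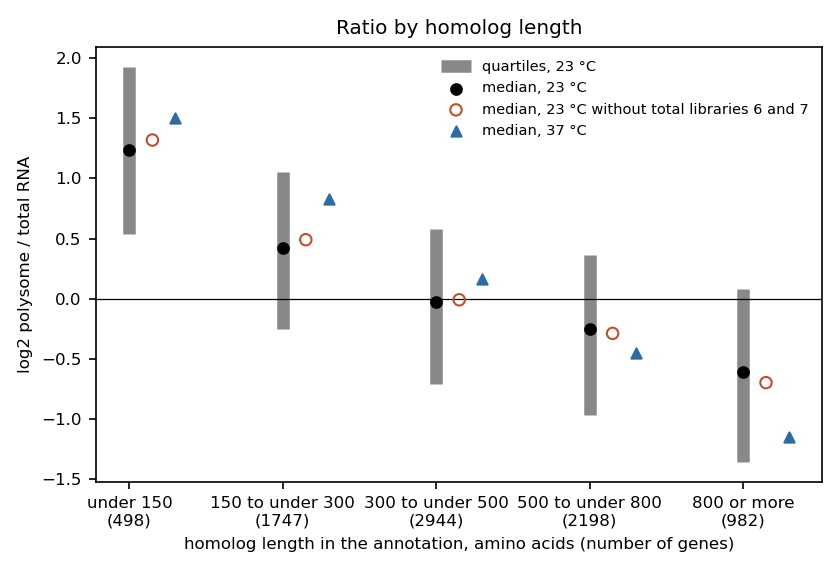
Log2 ratio of polysome to total RNA by length of the homolog in the annotation, in amino acids, with the number of genes in each class: grey bars are quartiles and black points medians at 23 °C, open circles medians at 23 °C without total libraries 6 and 7, and blue triangles medians at 37 °C. The medians at 23 °C step down from 1.24 in the shortest class to -0.61 in the longest.

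The ratio also moved with abundance. In 5 classes of 6865 genes by mean level, the median log2 ratios from the lowest to the highest class were -0.24, -0.15, -0.10, 0.03 and 0.44. In the highest class, genes above 15.9 CPM, 3464 of 6865 were over-represented and 1422 under-represented. The mean level includes the polysome libraries, so it is not independent of the ratio.

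The ratios at 37 °C come from 6 other libraries and were mostly of the same sign. There 10560 genes (30.8%) were over-represented and 9743 (28.4%) under-represented. Of the genes over-represented at 23 °C, 72.4% were also over-represented at 37 °C and 290 were under-represented. Of those under-represented at 23 °C, 67.1% were also under-represented at 37 °C and 348 were over-represented. Across genes, the Pearson correlation of the 2 log2 ratios was 0.72.

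Where the ratio itself differed between temperatures, by the test of the difference, 3502 genes (10.2%) had a higher ratio at 37 °C and 2891 (8.42%) a lower one, 6393 (18.6%) in all. Without libraries 6 and 7 the difference passed for 2434 genes. For antenna proteins 41 of 74 genes had a higher ratio at 37 °C and 0 a lower one, and the median was 0.78 at 23 °C and 1.79 at 37 °C. For histones 23 of 97 genes were higher and 0 lower, with medians of 1.10 and 1.79. Without libraries 6 and 7 the 23 °C medians of antenna proteins and histones were 0.78 and 1.35. The list counts given here are from the fit with all libraries. The 40S ribosomal list had 10 higher and 8 lower of 123 genes, with medians of 0.83 and 0.85. The aminoacyl-tRNA synthetases had 5 higher and 23 lower genes of 114, with medians of -0.70 and -0.89. Plastid genome genes had 42 higher and 1 lower of 131, beside the change of sign of their 23 °C ratio with libraries 6 and 7.

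**Figure D5:**
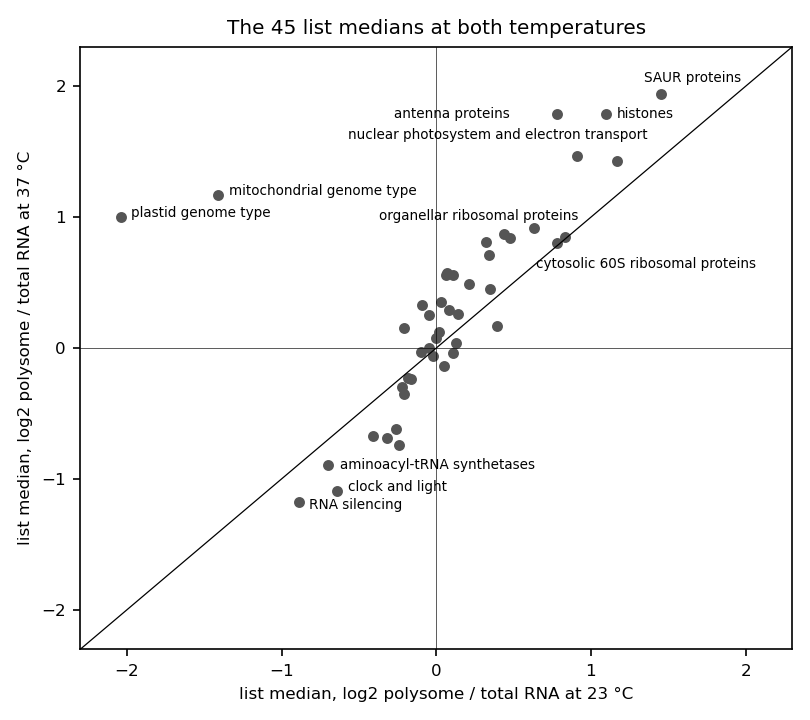
Median log2 ratio of polysome to total RNA of the 45 gene lists at 23 °C (horizontal axis) and 37 °C (vertical axis), each point a list, with the diagonal where both are equal. The plastid and mitochondrial genome lists lie far above the diagonal (-2.04 and 1.00, -1.41 and 1.17), and antenna proteins (0.78 and 1.79) and histones (1.10 and 1.79) lie above it on the positive side.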

How the data were processed

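RNA sequencing measured total and polysome RNA of leaves in 12 libraries, 3 in each of 4 groups, grouped by titles and treatment labels. Tools listed in the submitters' processing notes are HTSeq 0.11.0, HISAT2, cutadapt and DESeq, with no roles given. The genome build, and whether reads were counted by strand, are not given in the sources used here. The deposited table holds counts per gene, which the file headers call raw data; the lowest value in every library was 1. Normalized values (signal) are counts the authors divided by 1 factor per library, per the file headers. The log2 columns are the authors' ratios of group means, per the file headers. In the authors' deposited table, log2 ratios had a median of 0.06 over the tested genes and the sign found here for 100.0% of called genes. Only counts were tested. Every column had a sample (0 did not), and 2 emptied lines were not analysed here. No pair of libraries was identical (0 pairs).

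Counts as deposited were tested with the quasi-likelihood method of edgeR 4.0.16 (R 4.3.3), after filterByExpr at a count of 10 and TMM scaling, in 1 model of the 4 group means over 12 libraries, with Benjamini-Hochberg adjustment over all tested genes and a threshold of 0.05. The script was first tested on simulated data. The standard error is the log2 ratio divided by the square root of F. Depth limits genes with few counts, and the spread between libraries limits the rest. Alternatives were DESeq2 1.42.0, limma-voom (limma 3.58.1), RLE size factors, library totals alone, scaling without organelle genes, a minimum mean of 5 CPM or no filter, the 6 mock libraries alone, counts less 1, each mock library left out, and total libraries 6 and 7 left out together.

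The 45 gene lists and 49 subfamilies were matched on annotation text. Lists and members were chosen with earlier results of these data known. Subfamilies were chosen after list values were seen, and 3 lists (photosystem, plastid genome, mitochondrial genome) were corrected on their text then. None of the lists has a test of its own. Named genes are the 10 largest ratios each way among called genes with an informative text, a mean above the median of tested genes (5.27 CPM), no overlap between fractions, the same direction with each library and with total libraries 6 and 7 left out, 1 gene per text and no organelle genome type. To these were added the 5 most abundant genes of each fraction and, from 17 lists, the gene with the smallest adjusted p in each direction and the gene of highest level. The mean level used for naming took in both fractions, so it is not independent of the ratio. Further models of the same annotation were named after their values were seen.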

Additional observations from a re-analysis of the deposited data

Results flagged for a closer look

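For 36 of the 74 named genes the log2 ratio of polysome to total RNA differed between 37 °C and 23 °C by edgeR's test of that difference. Among all tested genes the share that differed was 18.6%. Values in parentheses are the ratio at 37 °C less that at 23 °C. Genes named for the largest ratios, or for the smallest adjusted p in a list, were chosen by their 23 °C results. That choice alone favours ratios closer to 0 at 37 °C. For an F-box protein gene (Niben101Scf08193g00009.1, -4.42) the ratio was 3.19 at 23 °C and -1.23 at 37 °C (adjusted p = 1.5e-04). For GTPase Der (Niben101Scf39490g00008.1, 4.42) it was -5.55 and -1.13 (adjusted p = 2.2e-05).

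A higher ratio at 37 °C that also passed without total libraries 6 and 7 was found for 15 genes: GTPase Der, the VPS18 homolog (Niben101Scf02077g12027.1, 2.59), ClpA (Niben101Scf00213g02005.1, 1.60), ferredoxin-dependent glutamate synthase (Niben101Scf12966g00016.1, 1.67), acetyl-coenzyme A synthetase (Niben101Scf07601g00006.1, 1.59), ArnA (Niben101Scf03862g03013.1, 3.11), LRR protein 9 (Niben101Scf04628g00015.1, 2.86), glutamine synthetase 2 (Niben101Ctg03632g00004.1, 3.61), magnesium-chelatase subunit H (Niben101Scf24421g00002.1, 2.98), ribosomal protein S4 (Niben101Scf17473g00009.1, 2.38), acidic ribosomal protein P0 (Niben101Scf02370g02007.1, 1.48), eIF5A (Niben101Scf03166g00008.1, 1.26), antenna protein 40 (Niben101Scf01020g01004.1, 1.55), pectinesterase U1 (Niben101Scf02290g09003.1, 2.62) and SLU7 (Niben101Ctg14954g00005.1, 1.25). A further 9 were higher at 37 °C but did not pass without those libraries: Rubisco small chain 8B (Niben101Scf01991g05015.1, 0.69), elongation factor 1-alpha (Niben101Scf08618g01012.1, 0.68), antenna protein 50 (Niben101Scf02262g01007.1, 0.78), histone H1 (Niben101Scf07748g01001.1, 1.34), SAUR genes (Niben101Scf01524g00006.1, 1.16, and Niben101Scf13186g02006.1, 1.02), the Rubisco large chain (Niben101Scf00173g09004.1, 4.56), NADH-ubiquinone oxidoreductase chain 4 (Niben101Scf05425g00016.1, 3.66) and ATP synthase subunit 9 (Niben101Scf05957g00001.1, 2.43).

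Of the genes with a lower ratio at 37 °C, 5 also passed without those libraries: the F-box gene, a lysine-tRNA ligase (Niben101Scf03323g01004.1, -2.22), a SAUR gene (Niben101Scf00135g03006.1, -2.93), GIGANTEA (Niben101Scf07631g02024.1, -1.27) and small nuclear ribonucleoprotein E (Niben101Scf00887g05007.1, -1.19). The other 7 did not: photosystem II 5 kDa protein (Niben101Scf00290g00017.1, -0.74), the EF hand protein (Niben101Scf02245g00008.1, -1.25), acidic ribosomal protein P2 (Niben101Scf06081g02016.1, -0.86), elongation factor 2 (Niben101Scf01848g04005.1, -0.54), Argonaute 4 (Niben101Scf06788g00019.1, -1.77), cryptochrome-1 (Niben101Scf02751g04010.1, -0.80) and the plastid NAD(P)H-quinone oxidoreductase chain 4 (Niben101Scf07850g07005.1, -1.14).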

How the results depend on the processing

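No paired analysis was possible because the groups compared share no title number (2 to 4 against 5 to 7). At 37 °C the numbers are swapped, with total RNA at 2 to 4 and polysome RNA at 5 to 7. Any effect tied to these numbers cannot be told apart from the fraction at 23 °C. It would also enter the difference between temperatures. Library totals alone, added after the data were seen, gave 3258 over-represented and 17246 under-represented genes and a median of all genes of -0.69. With that median subtracted, all 45 list medians stayed near the reported ones. Examples are organellar ribosomal proteins (0.44), cell wall and secreted enzymes (0.62) and Calvin cycle enzymes (0.32). A log2 ratio over 1 left 5444 over-represented genes, and a mean of at least 5 CPM, which tests fewer genes, left 6189 under-represented ones. The median of all genes was 0.07 with RLE size factors and with DESeq2, -0.02 with counts less 1 and 0.05 without total libraries 6 and 7, and -0.03 to 0.01 with 1 mock library left out. Without libraries 6 and 7 the difference between temperatures passed for 2434 genes. With 1 mock library left out, 7879 to 9295 genes were over-represented, 8216 to 9154 under-represented, and 4755 to 7498 differed between temperatures. The other alternatives gave counts within 1.5 times the reported ones, and the gap of 1.85 between the shortest and longest homologs ran from 1.67 to 2.02 over all of them. Of 45 lists, 25 had a median above that of all genes (22 to 26 under the alternatives). The MYB list, at -0.05, was at 0.01 with RLE size factors and DESeq2.

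Some named genes changed sign; apart from the scaling, the cause was not tested. With library totals alone, which lowers every ratio, these were Rubisco small chain genes Niben101Scf03015g06015.1 (-0.48), Niben101Scf03015g06014.1 (-0.44) and Niben101Ctg10718g00002.1 (-0.26), eIF5A Niben101Scf03166g00008.1 (-0.47), elongation factor 1-alpha Niben101Scf08618g01012.1 (-0.65), SAUR Niben101Scf13186g02006.1 (-0.55) and cryptochrome-1 Niben101Scf02751g04010.1 (-0.16). Splicing factor 19-2 Niben101Scf27139g00016.1 was at 0.01 with RLE size factors and DESeq2. Elongation factor 1-alpha Niben101Scf08618g01012.1 was at -0.05 with a mean of at least 5 CPM, -0.09 without libraries 6 and 7, -0.01 without total library 7 and -0.02 without polysome library 2. Leaving out 1 library moved this gene from -0.02 to 0.11, and antenna gene Niben101Scf05349g01011.1 from -0.39 to 0.05 (without polysome library 2). Without libraries 6 and 7, Rubisco large chain Niben101Scf00173g09004.1 was at 1.44 and ATP synthase subunit 9 Niben101Scf05957g00001.1 at 0.27.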

Other observations

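At 23 °C, cytochrome P450 enzymes, which oxidize small molecules and are anchored in the endoplasmic reticulum, had 41 over-represented and 22 under-represented genes of 148 and a median log2 ratio of 0.35 (-0.32 with library totals alone). Among transcription factors, the ERF family had 42 over-represented and 20 under-represented genes of 149 and a median of 0.32 (-0.35 with library totals alone), whereas the WRKY family had 7 and 19 of 76 and a median of -0.22. The bHLH, NAC and TCP families had medians of 0.08, 0.00 and 0.06. With library totals alone these were -0.62, -0.68 and -0.61, where the median of all tested genes was -0.69. Receptor-like kinases, which sense signals at the cell surface, had 122 and 184 of 681 and a median of -0.16. NLR disease resistance proteins, the intracellular immune receptors, had 14 and 27 of 86 and a median of -0.32, and pentatricopeptide repeat proteins, which bind organelle RNAs, had 95 and 161 of 543 and a median of -0.21. Kinesins, motor proteins of microtubules, had 6 and 24 of 66. Subunits of the proteasome had 41 and 35 of 141 and a median of 0.03, and heat shock proteins and chaperones 93 and 122 of 413 and a median of -0.05. Without total libraries 6 and 7 the medians were -0.14 for receptor-like kinases, -0.53 for NLR proteins and -0.35 for pentatricopeptide repeat proteins. They were then -0.24 for the WRKY family, -0.32 for kinesins (-0.24 with all libraries) and -0.03 for heat shock proteins and chaperones. The small list of enzymes that upstream open reading frames regulate in Arabidopsis had 4 over-represented and 0 under-represented genes of 6. Its median was 0.48, and 0.42 without those libraries.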
